A study of Mus musculus with 48 samples.

Results

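The genes described here are 10 nuclear receptors through which the liver handles lipids, bile acids and foreign compounds: Ppara, Ppard, Pparg, Rxra, Nr1i2 (PXR), Nr1i3 (CAR), Nr1h4 (FXR), Nr5a2 (LRH-1), Hnf4a and Esrra (ERRα). They were chosen by name, with earlier results of these data known. A probe belonged to a receptor when its gene name on the array was one of these symbols. The array carried 17 such probes, and 16 of them passed the filter on dim signals. The 10 receptors are 10 of 20485 genes measured. The remaining probe, a second one for Pparg, was well above background on 0 of 48 arrays.

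Liver RNA of male mice was hybridized to 48 one-colour Agilent arrays, 1 for each mouse and 6 for each of 8 groups. The groups combine genotype, diet and nutritional state. p110α hep-/- mice carry floxed alleles of p110α, the catalytic subunit of phosphoinositide 3-kinase that acts below the insulin receptor, and Cre driven by the albumin promoter, so the gene is deleted in hepatocytes, and other liver cells are not the target. p110α hep+/+ mice are their littermates with the same floxed alleles and without Cre. From 12 weeks of age the mice ate either a control diet (CTRL diet) or a high fat diet (HFD) with 60% of calories from fat for 12 weeks. They were then fed or fasted for 24 h, and all were killed at zeitgeber time 16 h, which falls in the dark phase.

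Nuclear receptors are transcription factors that a small lipid-soluble ligand can switch on. PPARα drives fatty acid oxidation and ketone body formation in the fasted liver, PPARγ drives lipid storage and is best known from adipocytes, and PPARδ also controls fatty acid use. PXR and CAR sense drugs and other foreign compounds and induce cytochromes P450, transferases and transporters, while FXR senses bile acids. RXRα is the shared partner with which the PPARs, PXR, CAR and FXR bind DNA. LRH-1, HNF4α and ERRα are regarded as active without a classical ligand, and act on bile acid synthesis, hepatocyte identity and mitochondrial genes.

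The promoters of the receptors that changed most are shown first, because Pparg differed between the genotypes and Ppara, Nr1i2, Nr1i3 and Hnf4a changed together with the fast. The windows are the 250 bases before each annotated start in RefSeq (GRCm38.p6), written 5′ to 3′ on the strand of the gene. All 10 receptors were matched, with 15 windows. Capitals mark the letters AGGTCA, the hexamer that many nuclear receptors bind, or TGACG, the core of the site bound by CREB, each searched on both strands. The 3 windows of Pparg were these:
Pparg (chr6:115360894-115361143, plus strand): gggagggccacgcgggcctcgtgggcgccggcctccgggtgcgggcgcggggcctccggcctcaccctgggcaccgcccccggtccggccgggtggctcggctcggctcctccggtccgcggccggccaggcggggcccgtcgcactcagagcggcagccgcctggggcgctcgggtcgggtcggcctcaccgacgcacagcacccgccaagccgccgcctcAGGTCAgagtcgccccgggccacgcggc
Pparg (chr6:115362099-115362348, plus strand): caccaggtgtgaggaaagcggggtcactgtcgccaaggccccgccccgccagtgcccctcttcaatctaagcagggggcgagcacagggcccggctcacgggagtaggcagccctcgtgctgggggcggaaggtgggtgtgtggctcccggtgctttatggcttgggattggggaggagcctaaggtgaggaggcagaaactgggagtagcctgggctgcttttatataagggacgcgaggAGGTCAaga
Pparg (chr6:115421816-115422065, plus strand): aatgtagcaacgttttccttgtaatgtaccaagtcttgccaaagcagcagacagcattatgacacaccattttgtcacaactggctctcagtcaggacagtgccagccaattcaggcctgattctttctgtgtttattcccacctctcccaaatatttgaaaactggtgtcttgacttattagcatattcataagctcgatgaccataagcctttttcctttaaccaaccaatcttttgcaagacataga

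The windows of the 4 receptors that were higher after the fast, 1 each for Ppara, Nr1i2 and Nr1i3 and 2 for Hnf4a, were these:
Ppara (chr15:85735526-85735775, plus strand): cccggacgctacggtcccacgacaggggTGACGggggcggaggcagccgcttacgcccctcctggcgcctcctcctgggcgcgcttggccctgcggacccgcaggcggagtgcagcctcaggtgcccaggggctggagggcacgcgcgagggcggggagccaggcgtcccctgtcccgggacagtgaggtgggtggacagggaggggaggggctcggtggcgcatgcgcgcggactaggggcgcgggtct
Nr1i2 (chr16:38294825-38295074, minus strand): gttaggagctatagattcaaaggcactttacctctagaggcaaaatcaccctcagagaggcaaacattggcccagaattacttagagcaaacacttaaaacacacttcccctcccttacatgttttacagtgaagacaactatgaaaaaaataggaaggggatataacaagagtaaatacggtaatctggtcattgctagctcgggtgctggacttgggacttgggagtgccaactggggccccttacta
Nr1i3 (chr1:171213720-171213969, plus strand): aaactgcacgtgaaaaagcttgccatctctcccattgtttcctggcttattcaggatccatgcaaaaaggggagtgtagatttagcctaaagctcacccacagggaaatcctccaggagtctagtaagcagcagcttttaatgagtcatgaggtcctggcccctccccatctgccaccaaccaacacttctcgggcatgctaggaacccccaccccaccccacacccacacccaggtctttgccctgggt
Hnf4a (chr2:163506607-163506856, plus strand): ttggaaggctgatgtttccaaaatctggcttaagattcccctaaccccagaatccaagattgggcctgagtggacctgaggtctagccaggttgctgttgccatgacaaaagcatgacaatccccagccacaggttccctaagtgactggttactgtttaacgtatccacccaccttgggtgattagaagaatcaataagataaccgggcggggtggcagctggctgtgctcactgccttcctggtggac
Hnf4a (chr2:163546905-163547154, plus strand): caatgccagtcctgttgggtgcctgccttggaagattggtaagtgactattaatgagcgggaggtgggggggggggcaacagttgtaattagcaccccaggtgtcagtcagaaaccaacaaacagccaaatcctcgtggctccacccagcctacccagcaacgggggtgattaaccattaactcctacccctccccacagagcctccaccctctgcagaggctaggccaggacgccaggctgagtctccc

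AGGTCA occurred in 5 of the 15 windows, belonging to 4 of the receptors, and in 14% of 32851 windows of the same length over all genes. It lay 28 bases before the start in the first window of Pparg and 9 bases before the start in the second. A direct repeat of this hexamer with any 1 base between the copies, the form that a PPAR and RXR bind as a pair, was in 0 of the 15 windows and in 0.0335% of all windows. TGACG was in 1 of the 15, that of Ppara, and in 17.8% of all. GTAAACA, a site of FOXO factors, was in 0 of the 15 and in 3.17% of all. These are matches of letters and carry no measurement of binding.

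Levels below are normalized log2 signals of the brightest probe of a gene, and a difference is a log2 fold change from limma with weights for the arrays. A change passed the test at an adjusted p of at most 0.05, where the Benjamini-Hochberg adjustment ran across every probe that met the filter. A level is compared between groups for the same probe, never between genes. Arrays were washed in batches 1 and 2, which held slides 1 to 3 and slides 4 to 6. Each slide held 1 array of every group. A fit within 1 washing batch thus has fewer mice per group than the main fit, and a call is harder to reach there.

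Hepatocyte markers (Alb, Apoa1, Ttr, Serpina1a and Cps1) were well above background on 48 of 48 arrays. The summed signal of these 5 lay between 1260000 and 1360000 on all 48 arrays. Quantile normalization gives every array the same distribution of signals, so a sum over such bright genes can hardly vary. This sum therefore cannot show whether the hepatocyte content was stable. Between 50.1% and 57.4% of probes were well above background on an array and 0 spots were saturated. One probe of Pik3ca, the gene for p110α, was higher in p110α hep-/- mice on CTRL diet when fed (0.39, SE 0.08, adjusted p = 0.000403) and on HFD when fed (0.58, SE 0.08, adjusted p = 2.74e-07) and fasted (0.25, SE 0.08, adjusted p = 0.0172). Where this probe lies relative to the deleted exons was not determined, so it does not check the genotype labels. In bulk liver, fewer cells of a type and less RNA per cell cannot be told apart. Replicate 2 of fed p110α hep+/+ mice on CTRL diet and replicate 3 of fed p110α hep-/- mice on HFD were further from their own group's average than from that of fed p110α hep-/- mice on CTRL diet (distances of 42.1 against 38.8 and 53.2 against 47.8). Without these 2 arrays, 22 receptor differences passed for the fast, 10 for diet, 11 for genotype and 2 for the interactions, beside 21, 9, 10 and 2 with all arrays.

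**Figure D1:**
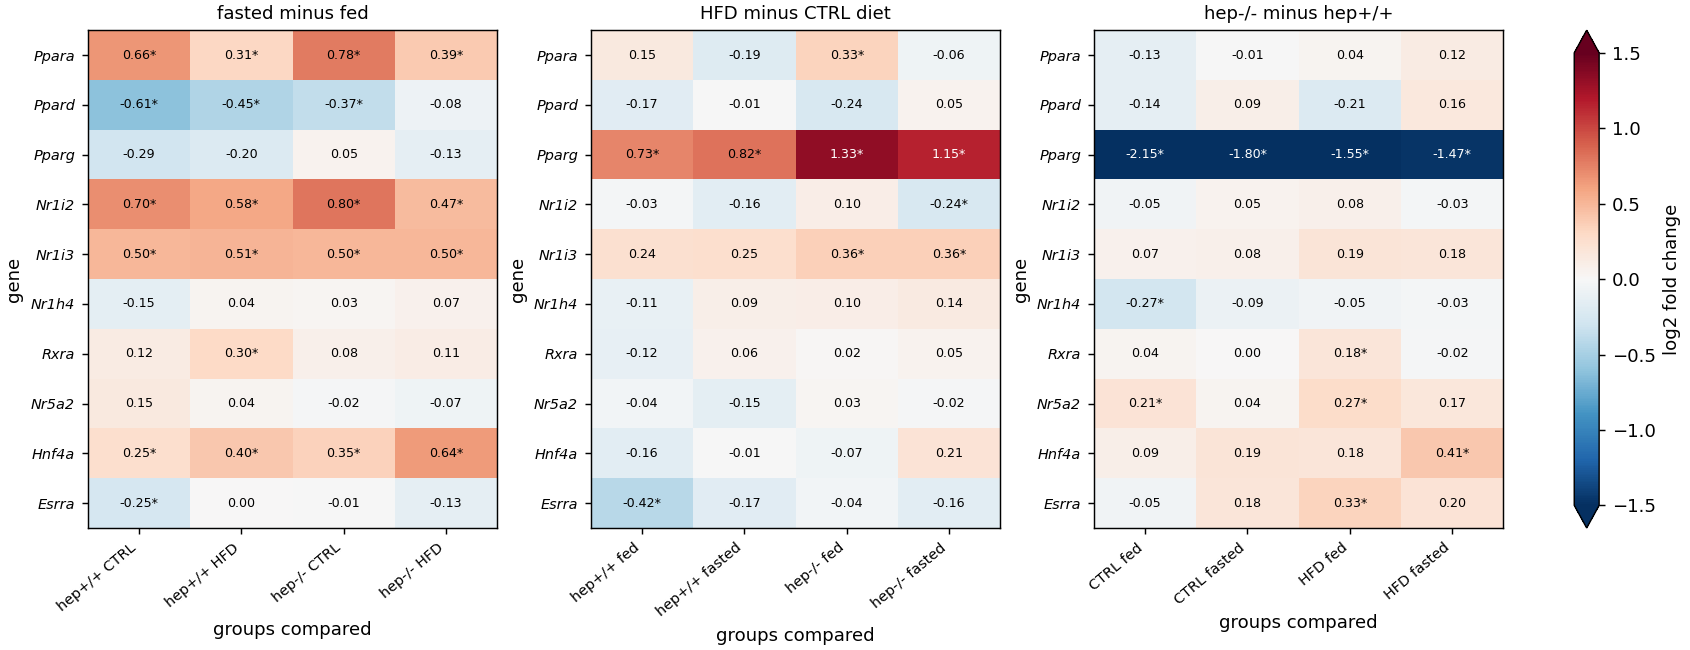
Log2 fold change of the 10 receptors (rows) in the 12 comparisons of 2 groups (columns), with an asterisk where the adjusted p was at most 0.05. Colour runs from -1.5 to 1.5, and values beyond take the end colour. Pparg has the largest values for genotype, from -2.15 to -1.47, and Ppara, Nr1i2, Nr1i3 and Hnf4a have an asterisk in all 4 columns of the fast.

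Pparg was the single receptor that differed between the genotypes in all 4 pairs of groups, and it accounts for 4 of the 10 genotype differences that passed. It was lower in p110α hep-/- mice each time, by 2.77-fold to 4.44-fold, and it was higher on HFD in both genotypes and both nutritional states. The fast did not move it past the test. Its group means spanned 2.93 on the log2 scale, the widest span of the 10 receptors, against a median SD within groups of 0.29. The probe that measures it lies at chr6:115440213-115440272 (mm9, plus strand).

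In fed p110α hep+/+ mice on CTRL diet, Pparg levels ran from 9.90 through a median of 10.83 to 11.01. Fed p110α hep-/- mice on the same diet had 8.12, 8.55 and 8.88 as lowest, median and highest. The groups did not overlap, and the difference was -2.15 (SE 0.18, 95% interval -2.52 to -1.78, adjusted p = 9.49e-12), lower on all 6 slides, each of which held 1 array of every group. In this comparison 3 of the 10 receptors passed, against 21.7% of all genes.

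After the fast on CTRL diet, the lowest, median and highest levels of Pparg were 10.08, 10.45 and 10.87 in p110α hep+/+ mice. They were 8.29, 8.71 and 8.85 in p110α hep-/- mice. Again the groups were apart, with a difference of -1.80 (SE 0.18, adjusted p = 2.65e-10). Pparg was the single receptor of the 10 that passed here, against 24.8% of all genes.

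On HFD the levels of both genotypes were higher. Fed p110α hep+/+ mice had Pparg at 11.17, 11.49 and 11.64, and fed p110α hep-/- mice at 9.06, 9.77 and 10.50 (lowest, median, highest). The difference was -1.55 (SE 0.18, adjusted p = 1.08e-08). Among the 10 receptors 4 passed in this pair, against 33.0% of all genes. Fasted p110α hep+/+ mice on HFD had 10.90, 11.27 and 11.63, and fasted p110α hep-/- mice had 9.19, 9.94 and 10.20. That difference was -1.47 (SE 0.19, adjusted p = 7.48e-08), and 2 of the 10 passed against 36.9% of all genes. In both pairs the p110α hep-/- mice lay below every p110α hep+/+ mouse of the same diet and state.

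HFD against CTRL diet raised Pparg by 0.73 in fed p110α hep+/+ mice (SE 0.18, adjusted p = 0.00202) and by 0.82 after the fast (SE 0.18, adjusted p = 0.00118). With p110α deleted the rise was 1.33 when fed (SE 0.19, 2.52-fold, adjusted p = 3.51e-06) and 1.15 after the fast (SE 0.19, 2.22-fold, adjusted p = 4.81e-05). The diets did not overlap in any of these 4 pairs and the sign was the same on all 6 slides. Within a washing batch, the rise in fed p110α hep+/+ mice was 0.74 in batch 1 (adjusted p = 0.0623) and 0.67 in batch 2 (adjusted p = 0.122), and after the fast it was 0.85 in each (adjusted p = 0.0386 and 0.0503). Among fed mice the genotypes differed in this rise by 0.60 (p110α hep-/- minus p110α hep+/+, 95% interval 0.08 to 1.13), which did not pass (adjusted p = 0.212). Of 10 receptors 2 passed for diet in fed and 1 in fasted p110α hep+/+ mice, against 23.9% and 16.0% of all genes, and 3 passed in fed and 3 in fasted p110α hep-/- mice, against 12.3% and 10.8%.

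The fast itself left Pparg at differences of -0.29 and -0.20 in p110α hep+/+ mice on CTRL diet and HFD (adjusted p = 0.224 and 0.42), and of 0.05 and -0.13 in p110α hep-/- mice (adjusted p = 0.857 and 0.7). In the order of the 8 group means, all 4 p110α hep+/+ groups came first, from fed on HFD down to fasted on CTRL diet. Neighbours in that order overlapped except between fed p110α hep-/- mice on HFD and fasted p110α hep-/- mice on CTRL diet.

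**Figure D2:**
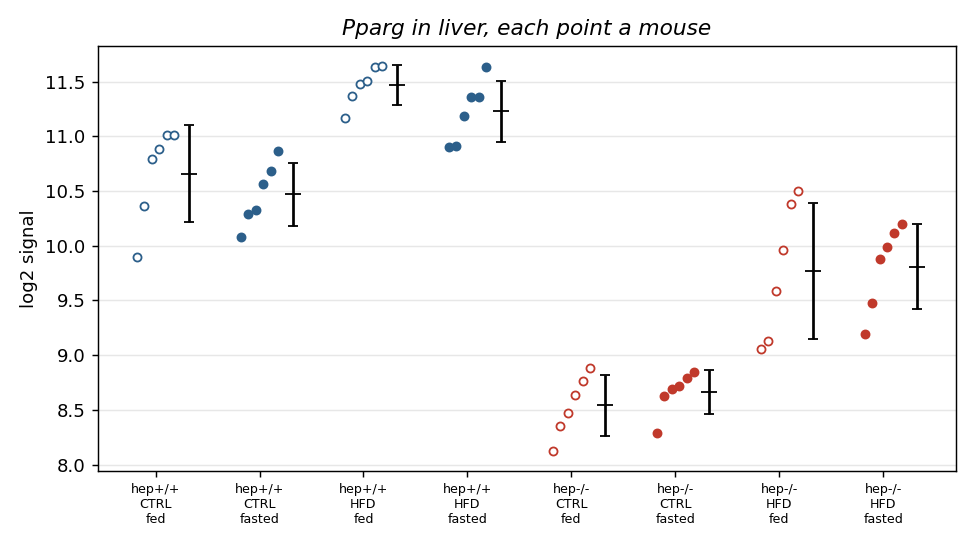
Normalized log2 signal of Pparg (vertical axis) in the 8 groups, each point a mouse. Blue is p110α hep+/+ and red is p110α hep-/-, open points are fed and filled points fasted mice, and the black mark is the mean with its SD (n = 6). On CTRL diet the p110α hep-/- mice lie between 8.12 and 8.88 and the p110α hep+/+ mice between 9.90 and 11.01.

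Some genes on the list of known PPARγ targets in liver were lower in p110α hep-/- mice, and 1, Lpl, was higher. The list holds 8 genes, all measured. Like the other gene lists, it was chosen with earlier results of these data known, so its counts are descriptions. In p110α hep-/- mice 5 were lower and 1 higher when fed on CTRL diet, 4 lower and 1 higher when fasted on CTRL diet, and 5 lower and 1 higher on HFD in either state. The other 2, 3, 2 and 2 did not pass. Of all genes, 21.7%, 24.8%, 33.0% and 36.9% passed in these 4 pairs. The medians over the list were -2.64, -0.63, -1.99 and -1.59, beside 0.01 to 0.03 over all genes.

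Cd36, the fatty acid uptake receptor, differed by -2.61 when fed on CTRL diet (SE 0.25, adjusted p = 1.12e-10) and by -1.35 when fed on HFD (SE 0.25, adjusted p = 3.32e-05). Cidea, a lipid droplet protein, showed the largest difference of the list, -8.26 after the fast on HFD (SE 0.50, adjusted p = 7.71e-17). In p110α hep-/- mice Cidea was well above background on 1 of 6 arrays when fed and 4 of 6 when fasted on CTRL diet, and on 4 of 6 and 5 of 6 on HFD, so its low levels are near the limit of detection. Its relative Cidec differed by -4.39 when fed on HFD (SE 0.42, adjusted p = 4.95e-11) but by -0.36 after the fast on CTRL diet (adjusted p = 0.576), where Cidec had risen by 4.09 with the fast in p110α hep-/- mice (SE 0.42, adjusted p = 1.44e-10).

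Mogat1, which makes diacylglycerol, differed by -2.81 when fasted on HFD (SE 0.27, adjusted p = 9.77e-11), and Plin4, which coats lipid droplets, by -2.80 when fed on HFD (SE 0.28, adjusted p = 1.42e-10). Lpl, the lipoprotein lipase that releases fatty acids from circulating triglyceride, went the other way. It was higher in p110α hep-/- mice by 0.70, 1.05, 1.39 and 1.84 in fed and fasted mice on CTRL diet and fed and fasted mice on HFD (adjusted p = 0.00638, 2.65e-05, 1.87e-07 and 8.56e-10). Fabp4, the adipocyte fatty acid binding protein, differed by -0.19 to 0.50 and Aqp7, a glycerol channel, by -0.21 to -0.01, and neither passed.

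On HFD, 7 of the 8 PPARγ targets rose in fed and 6 in fasted p110α hep+/+ mice, while 6 rose in fed p110α hep-/- mice. In fasted p110α hep-/- mice 2 rose and 1 fell. Of all genes, 23.9% and 16.0% passed in fed and fasted p110α hep+/+ mice, and 12.3% and 10.8% in fed and fasted p110α hep-/- mice. The list medians were between 0.50, in that last pair, and 1.37, in fed p110α hep-/- mice, beside -0.02 to 0.00 over all genes. For Cd36 the rise was 1.11 (SE 0.23) without Cre and 2.36 (SE 0.26) with it in fed mice (adjusted p = 0.000464 and 2.1e-08). Fabp4 rose by 2.06 in fed p110α hep-/- mice (SE 0.31, adjusted p = 5.9e-06), and the gene that fell, Cidec, fell by 2.13 on the log2 scale (SE 0.44, adjusted p = 0.000783). Without the 2 arrays that lay nearer to another group, 6 of 8 rose in fed p110α hep+/+ mice.

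Some markers of other cell types differed between the genotypes in the same direction as Pparg. The summed signal of the adipocyte markers kept (4 of 5) ran from 639 to 37300 in p110α hep+/+ mice and from 242 to 2210 in p110α hep-/- mice. Of the 4 markers kept, 1 was lower in p110α hep-/- mice in each pair, Cfd, and Lep was higher in fed mice on HFD (0.55, adjusted p = 0.00107). The medians over the 4 were -0.07, -0.08, -0.10 and 0.02. Cfd differed between the genotypes by -5.58, -5.46, -4.09 and -5.19 and rose by 1.76 to 3.24 on HFD. Adipoq, which defines adipocytes, was well above background on 6 of 48 arrays, Plin1 on 21, Retn on 25, Cfd on 44 and Lep on 48. The summed signal of 5 cholangiocyte markers ran from 1450 to 5400 in p110α hep+/+ mice and from 559 to 1130 in p110α hep-/- mice. In each pair 3 or 4 of the 5 were lower. Beside the counts of both marker sets, 21.7%, 24.8%, 33.0% and 36.9% of all genes passed for genotype in the 4 pairs. Spp1 among the cholangiocyte markers differed by -1.76, -1.87, -2.22 and -2.63. Epcam was well above background on 18 of 48 arrays, Krt7 on 28, Krt19 on 45, and Sox9 and Spp1 on 48. Some of these signals are thus near the limit of detection. With HFD 1 of the 5 cholangiocyte markers rose in fed and 1 in fasted p110α hep+/+ mice, near the 23.9% and 16.0% of all genes. In p110α hep-/- mice 0 passed, against 12.3% when fed and 10.8% when fasted. The part of these markers in the Pparg result was not tested.

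A set of 4 receptors was higher after the fast in every pair of groups: Ppara, Nr1i2, Nr1i3 and Hnf4a. These 4 account for 16 of the 17 rises that passed, and Rxra for the other. Ppara and Nr1i2 rose by up to 1.75-fold. In p110α hep-/- mice the rise of both had a lower value on HFD, by a difference that passed narrowly for Nr1i2 (adjusted p = 0.0473) and that lost the call for both receptors without correction of the washing batch. Of the 10 receptors, 6 passed in p110α hep+/+ mice on CTRL diet and 6 on HFD, and 5 and 4 passed in p110α hep-/- mice, where 32.6%, 28.6%, 35.5% and 28.6% of all genes passed. The median over the 10 receptors was 0.14, 0.17, 0.07 and 0.09, beside 0.00 over all genes. Markers of other cell types moved with the fast as well. Of 5 cholangiocyte markers 3, 1, 3 and 1 fell in the 4 pairs and 0 rose, and of 5 stellate cell markers 3, 2, 2 and 3 fell and 0 rose, with summed stellate signals of 2450 to 5150 in fed and 2170 to 4600 in fasted mice. The 5 hepatocyte markers had medians of -0.02 to 0.02, but quantile normalization holds such bright genes nearly fixed. The part of these markers in the rises was not tested.

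Ppara, the receptor of the fasted liver, had lowest, median and highest levels of 14.10, 14.28 and 14.47 in fed p110α hep+/+ mice on CTRL diet. After the fast they were 14.68, 14.98 and 15.09. The groups were apart, and the rise was 0.66 (SE 0.07, 1.58-fold, adjusted p = 8.47e-10). On HFD, fed p110α hep+/+ mice had 14.39, 14.43 and 14.58 and fasted ones 14.61, 14.80 and 14.91, a rise of 0.31 (SE 0.07, adjusted p = 0.000386). The fed mice were thus all below the fasted mice on either diet.

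Without p110α, on CTRL diet, Ppara went from 13.82, 14.20 and 14.42 when fed to 14.81, 14.97 and 15.03 when fasted. This rise of 0.78 (SE 0.07, 1.72-fold, adjusted p = 8.63e-12) was the largest of the 4. On HFD the levels were 14.31, 14.51 and 14.60 when fed and 14.75, 14.93 and 15.13 when fasted, a rise of 0.39 (SE 0.08, adjusted p = 0.000172). The 4 pairs did not overlap, and all 6 slides had the same sign in each. The probe lies at chr15:85632110-85632169 (mm9), and the second probe of Ppara rose by 0.82, 0.50, 0.95 and 0.46 and passed in the same 4 pairs. Within washing batch 1 the rises of Ppara on HFD were 0.27 in p110α hep+/+ mice (adjusted p = 0.116) and 0.34 in p110α hep-/- mice (adjusted p = 0.0614), and the other 6 values within a batch passed.

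The rise of Ppara differed between the diets in p110α hep-/- mice, by -0.39 (HFD minus CTRL diet, SE 0.11, 95% interval -0.61 to -0.18, adjusted p = 0.016, lower on 5 of 6 slides). In p110α hep+/+ mice it differed by -0.34 and lay at the threshold (adjusted p = 0.0503). Fed p110α hep-/- mice had more Ppara on HFD than on CTRL diet, by 0.33 (SE 0.08, adjusted p = 0.00228), with ranges that overlap. Within washing batches 1 and 2 this value was 0.35 and 0.38 (adjusted p = 0.0383 and 0.158). In fasted p110α hep+/+ mice the second probe of Ppara passed for diet with -0.29 (HFD minus CTRL diet, adjusted p = 0.00722). The brighter probe had -0.19 there (adjusted p = 0.0604). With the second probe the diet by state difference was -0.49 in p110α hep-/- mice (adjusted p = 0.00502) and -0.32 in p110α hep+/+ mice (adjusted p = 0.106). Without correction of the washing batch the difference for Ppara in p110α hep-/- mice was -0.37 and did not pass (adjusted p = 0.0557), and within a washing batch it was -0.41 and -0.46 (adjusted p = 0.15 and 0.196). Whether the genotypes differed in this was not tested.

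For the diet by state interaction, 2 of the 10 receptors passed in p110α hep-/- mice, against 8.0% of all genes, and 0 of 10 in p110α hep+/+ mice, against 2.36%. In the genotype by diet interactions 0 of 10 passed, against 3.03% of genes in fed and 5.09% in fasted mice. The genotype by state interactions also had 0 of 10, against 3.97% on CTRL diet and 3.49% on HFD.

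Nr1i2, which encodes PXR, rose with the fast by 0.70 in p110α hep+/+ mice on CTRL diet (SE 0.07, 1.63-fold, adjusted p = 2.79e-10), from 12.10, 12.21 and 12.38 to 12.74, 12.93 and 13.04 (lowest, median, highest). On HFD it rose by 0.58 (SE 0.07, adjusted p = 1.46e-08), from 11.95, 12.17 and 12.35 to 12.51, 12.67 and 13.01. In both diets the fasted mice were all above the fed mice.

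Without p110α, on CTRL diet, Nr1i2 went from 11.92, 12.20 and 12.24 to 12.77, 12.93 and 13.10, a rise of 0.80 (SE 0.07, 1.75-fold, adjusted p = 6.3e-12). On HFD it went from 11.95, 12.25 and 12.36 to 12.56, 12.71 and 12.88, a rise of 0.47 (SE 0.08, adjusted p = 1.78e-05). Every fasted mouse was above every fed mouse here too. The difference between these rises was -0.34 (SE 0.11, adjusted p = 0.0473, lower on 4 of 6 slides), and leaving out any of 24 of the 48 arrays in turn ended this call, with adjusted p up to 0.102. Within washing batches it was -0.19 and -0.46 (adjusted p = 0.469 and 0.218), while the 4 rises of Nr1i2 passed in each batch. In p110α hep+/+ mice the difference was -0.12 (adjusted p = 0.586). After the fast, Nr1i2 in p110α hep-/- mice differed between HFD and CTRL diet by -0.24 (SE 0.08, adjusted p = 0.0386), and this call was lost without any of replicates 1, 3 and 4 on CTRL diet or 1, 2, 3 and 6 on HFD (adjusted p = 0.0503 to 0.128). This diet call also ended without correction of the washing batch (-0.23, adjusted p = 0.0516). Within washing batches 1 and 2 the difference was -0.13 and -0.33 (adjusted p = 0.62 and 0.101). The probe of Nr1i2 is at chr16:38248745-38248804 (mm9, minus strand).

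Nr1i3, which encodes CAR, rose with the fast by nearly the same amount everywhere. The values were 0.50 (SE 0.11, adjusted p = 0.000294) and 0.51 (SE 0.10, adjusted p = 0.000166) in p110α hep+/+ mice on CTRL diet and HFD, and 0.50 (SE 0.11, adjusted p = 0.000266) and 0.50 (SE 0.12, adjusted p = 0.00126) in p110α hep-/- mice. The fed and fasted mice did not overlap in any pair. Within a washing batch the rise of Nr1i3 did not pass in p110α hep-/- mice on HFD in batch 1 (0.33, adjusted p = 0.0961) and passed in the other 7 values.

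Fed p110α hep+/+ mice had Nr1i3 at 11.26, 11.57 and 11.78 on CTRL diet and at 11.51, 11.83 and 11.97 on HFD, and fasted ones at 11.90, 12.04 and 12.35 and at 12.03, 12.33 and 12.57. Fed p110α hep-/- mice had 11.47, 11.65 and 11.84 on CTRL diet and 10.90, 12.08 and 12.30 on HFD, and fasted ones 12.02, 12.18 and 12.43 and 12.42, 12.52 and 12.78. The lowest value, 10.90, was from the array with the lowest weight. The probe lies at chr1:173147776-173147835 (mm9), and a second probe passed in the same pairs.

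Nr1i3 was higher on HFD in p110α hep-/- mice, by 0.36 when fed (SE 0.11, adjusted p = 0.0292) and by 0.36 when fasted (SE 0.11, adjusted p = 0.0316). The corresponding values in p110α hep+/+ mice were 0.24 (adjusted p = 0.084) and 0.25 (adjusted p = 0.0946). Both calls in p110α hep-/- mice were open to single arrays. The one in fed mice was lost without replicate 1, 2 or 5 on HFD or 4 on CTRL diet (adjusted p = 0.0643 to 0.136), and the one in fasted mice without replicate 2, 3 or 4 on CTRL diet or 2 or 6 on HFD (adjusted p = 0.0592 to 0.0886). Both calls also ended with median scaling, with no filter on dim probes and with no array weights. Without correction of the washing batch the call in fed mice ended (0.35, adjusted p = 0.0546). Within washing batches 1 and 2 the difference in fed mice was 0.42 and 0.29 (adjusted p = 0.0218 and 0.562). In fasted mice it was 0.27 and 0.42 (adjusted p = 0.354 and 0.159).

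Hnf4a, the master regulator of hepatocyte genes, rose with the fast by 0.25 (SE 0.08, adjusted p = 0.0184) and 0.40 (SE 0.08, adjusted p = 0.000174) in p110α hep+/+ mice on CTRL diet and HFD. With p110α deleted it rose by 0.35 (SE 0.09, adjusted p = 0.00115) and 0.64 (SE 0.09, 1.55-fold, adjusted p = 1.61e-06). Its fed and fasted ranges overlapped on CTRL diet in both genotypes and were apart on HFD. The smallest of these rises was lost without fed replicate 1 (adjusted p = 0.0627) or fasted replicate 6 (adjusted p = 0.0914). On CTRL diet the rises of Hnf4a differed between washing batches, with 0.12 in batch 1 (adjusted p = 0.494) and 0.39 in batch 2 (adjusted p = 0.0272) in p110α hep+/+ mice, and 0.19 (adjusted p = 0.137) and 0.57 (adjusted p = 0.0073) in p110α hep-/- mice. On HFD they were 0.40 and 0.37 (adjusted p = 0.0144 and 0.0551) in p110α hep+/+ mice and 0.54 and 0.79 in p110α hep-/- mice.

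On HFD, Hnf4a ran through 15.13, 15.22 and 15.42 in fed and 15.50, 15.65 and 15.85 in fasted p110α hep+/+ mice, and through 15.23, 15.44 and 15.86 in fed and 15.98, 16.01 and 16.27 in fasted p110α hep-/- mice. The fasted p110α hep-/- mice on HFD stood above all other mice on that diet. Their difference from fasted p110α hep+/+ mice was 0.41 (SE 0.09, adjusted p = 0.000302), higher on all 6 slides. In this pair 4 of 5 endothelial markers were also higher and 0 lower, where 36.9% of all genes passed. The endothelial sums were 16900 to 19100 in p110α hep-/- and 10800 to 18000 in p110α hep+/+ mice. The part of these markers in the Hnf4a result was not tested. The probe is at chr2:163398548-163398607 (mm9), and the second probe, which rose by 0.35, 0.42, 0.54 and 0.56, gave 0.39 for this genotype difference and passed in all 5 comparisons.

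**Figure D3:**
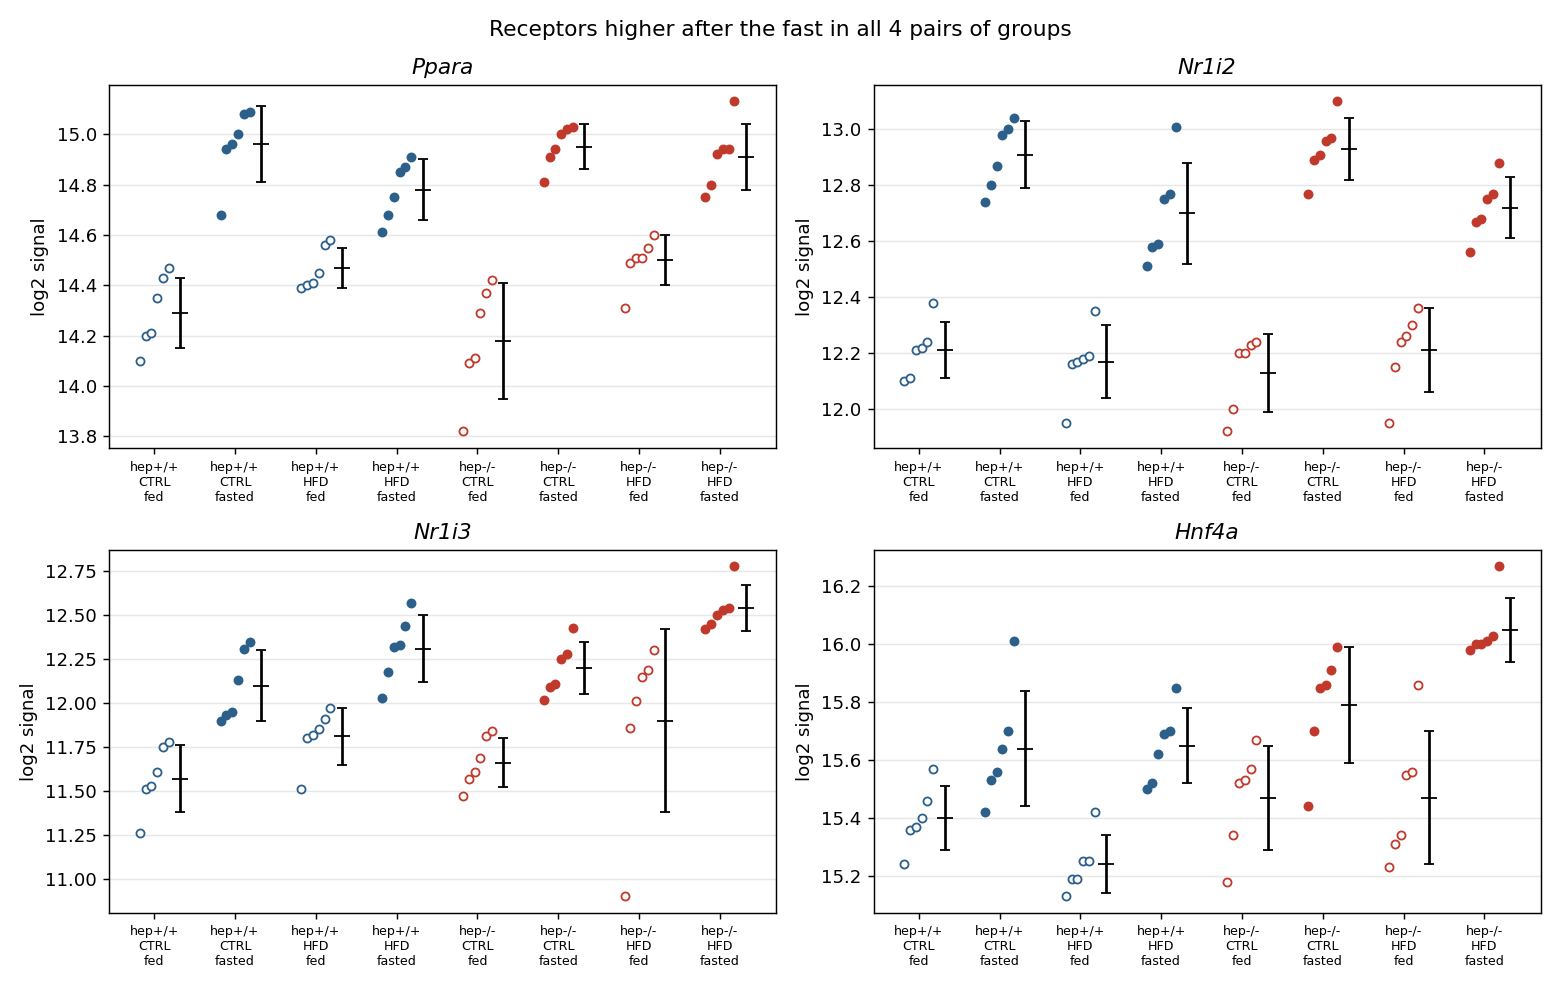
Normalized log2 signal of Ppara, Nr1i2, Nr1i3 and Hnf4a (vertical axes) in the 8 groups, each point a mouse, with blue for p110α hep+/+, red for p110α hep-/-, open points for fed and filled points for fasted mice. The black mark is the mean with its SD (n = 6). Ppara, Nr1i2 and Nr1i3 of fasted mice lie above those of fed mice in all 4 pairs.

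Across the 48 arrays, Pearson's r was 0.83 between Ppara and Nr1i2, 0.74 between Ppara and Nr1i3, 0.66 between Nr1i2 and Nr1i3, and 0.64 between Rxra and Hnf4a. These values describe arrays that share groups and carry no test.

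The PPARα target list rose with the fast on CTRL diet more than on HFD. Of 16 targets, all measured, 13 rose and 0 fell in p110α hep+/+ mice on CTRL diet, and 15 rose and 0 fell in p110α hep-/- mice. On HFD 6 rose and 3 fell in p110α hep+/+ mice, and 7 rose and 2 fell in p110α hep-/- mice. Of all genes, 32.6% and 35.5% passed on CTRL diet in p110α hep+/+ and p110α hep-/- mice, and 28.6% on HFD in either genotype. The list medians were 0.67 and 1.25 on CTRL diet and 0.20 and 0.22 on HFD, with 0.00 over all genes in each.

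The largest rises were in p110α hep-/- mice on CTRL diet. Pdk4, the kinase that shuts pyruvate out of oxidation, rose by 4.13 (SE 0.39, adjusted p = 2.1e-11), from 7.47, 8.17 and 9.10 to 10.54, 12.57 and 13.18. Cyp4a14 rose by 3.83 (SE 0.41, adjusted p = 5.46e-10) and Cyp4a10 by 3.29 (SE 0.24, adjusted p = 2.06e-14), both fatty acid hydroxylases. Fgf21, the hormone of the fasted liver, rose by 3.43 (SE 0.24, adjusted p = 3.79e-15).

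In p110α hep+/+ mice the rise of Fgf21 was 1.91 on CTRL diet (adjusted p = 1.56e-08) and its difference was -0.44 on HFD (adjusted p = 0.141).

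The diet by state interaction tested this for each gene, on a list chosen with earlier results of these data known. It was negative and passed for 8 of 16 PPARα targets in p110α hep+/+ mice (list median -0.82) and for 15 of 16 in p110α hep-/- mice (list median -1.27), beside 0.00 and 0.01 over all genes, and 0 passed the other way. Of all genes, 2.36% and 8.0% passed in these interactions. For Fgf21 it was -2.35 in p110α hep+/+ mice (SE 0.32, adjusted p = 1.99e-05) and -2.30 in p110α hep-/- mice (SE 0.35, adjusted p = 1.35e-05). Without the 2 arrays that lay nearer to another group, 9 and 16 of the 16 passed. HFD raised 12 and lowered 0 of the 16 in fed mice of either genotype, where 23.9% of all genes passed with p110α present and 12.3% with it deleted. In fasted mice HFD raised 0 of the 16 in either genotype. It lowered 4 of them in p110α hep+/+ mice, where 16.0% of all genes passed, and 11 of them without p110α, where 10.8% passed.

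By genotype, 10 of the 16 PPARα targets were lower and 1 higher in fed p110α hep-/- mice on CTRL diet, and after the fast 3 were higher and 0 lower. The shares of all genes that passed were 21.7% and 24.8%, so that 3 of 16 is no more than the share over all genes. Vnn1, the pantetheinase, differed by -2.17 when fed (SE 0.22, adjusted p = 1.18e-09), and Pdk4 by 2.40 (SE 0.38, adjusted p = 6.31e-06) and Ehhadh, an enzyme of peroxisomal oxidation, by 1.36 (SE 0.17, adjusted p = 6.4e-08) when fasted. The genotype by state interaction on CTRL diet was positive and passed for 7 of the 16, where 3.97% of all genes passed, and for 10 without the 2 arrays that lay nearer to another group. On HFD the deletion went with 2 higher and 6 lower targets in either state, where 33.0% of all genes passed in fed and 36.9% in fasted mice. The level of Ppara itself differed by -0.13 to 0.12 between the genotypes, and none of these 4 differences passed, although the second probe of Ppara passed in fed mice on HFD with 0.23.

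**Figure D4:**
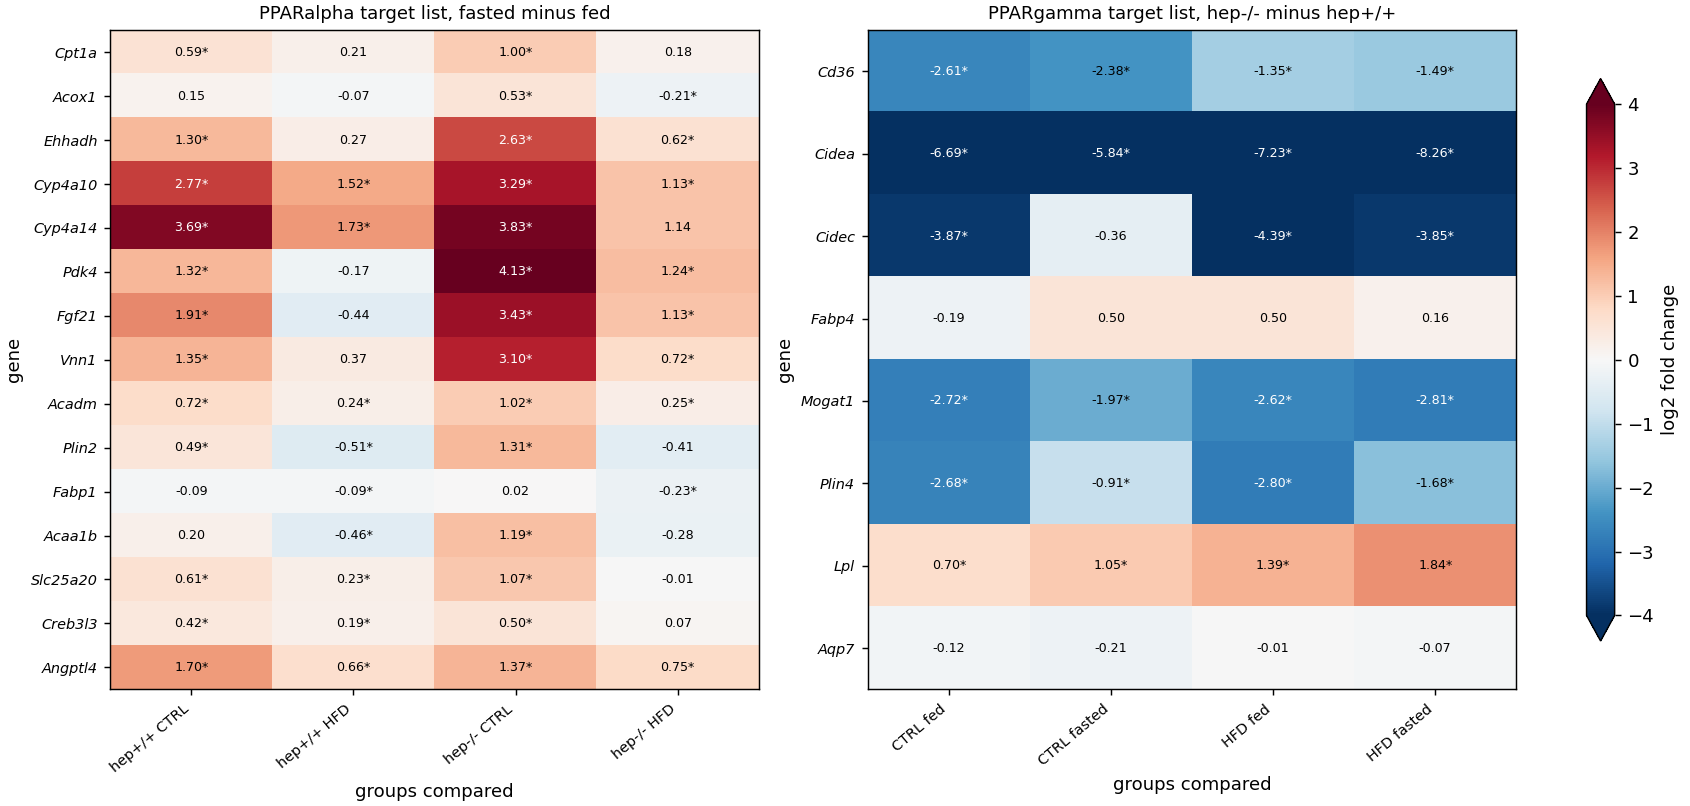
Log2 fold change of 15 of the 16 PPARα targets with the fast (left) and of the 8 PPARγ targets between the genotypes (right), with an asterisk where the adjusted p was at most 0.05. Colour runs from -4 to 4 and values beyond take the end colour, as for Cidea. On the left the CTRL diet columns hold the larger rises, up to 4.13 for Pdk4, and on the right Lpl is higher in p110α hep-/- mice and 5 of the other targets are lower in at least 3 of the 4 columns.

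For the lists below, the share of all genes that passed with the fast was 32.6%, 28.6%, 35.5% and 28.6% in the 4 pairs, and a count near that share is not particular to a list. Of 6 PXR targets measured, 4, 1, 2 and 1 rose and 1, 1, 1 and 0 fell with the fast in the 4 pairs, and 0 of 6 passed in any interaction of state with diet or genotype. Slco1a4, an uptake transporter, rose by 1.33 (SE 0.20, adjusted p = 7.66e-07) and Cyp3a11, the classical PXR target, by 0.88 (SE 0.25, adjusted p = 0.00643) in p110α hep+/+ mice on CTRL diet. Cyp3a11 did not pass in the other 3 pairs of the fast, with values of 0.26, 0.57 and -0.04. Abcc2, a canalicular export pump, rose in all 4 pairs by 0.23 to 0.43.

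Of 7 CAR targets, 3, 3, 3 and 2 rose and 1, 1, 2 and 0 fell with the fast in the 4 pairs, with list medians of 0.10, 0.25, -0.14 and 0.01. Por, the reductase that serves all microsomal P450 enzymes, rose by 1.03 and 1.11 in p110α hep+/+ mice and by 1.08 and 1.01 in p110α hep-/- mice. Gadd45b, a stress-response gene, rose by 2.52 in p110α hep-/- mice on CTRL diet (SE 0.28, adjusted p = 8.29e-10). Cyp2b10, the classical CAR target, followed the diet instead. On HFD it rose by 3.53 (SE 0.52, adjusted p = 2.28e-06) and 3.52 (SE 0.52, adjusted p = 7.35e-06) in fed and fasted p110α hep+/+ mice, and by 3.25 (SE 0.57, adjusted p = 7.86e-05) and 2.72 (SE 0.56, adjusted p = 0.000932) in p110α hep-/- mice. Its levels on CTRL diet were widely spread, from 8.96 to 13.50 in fed p110α hep+/+ mice.

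Among 11 HNF4α targets, 1 or 2 rose and 2 or 3 fell with the fast in each pair, 4 of 11 in all, near the share of all genes. Pck1, which commits carbon to gluconeogenesis, rose by 2.18 in p110α hep+/+ mice on CTRL diet (SE 0.20, adjusted p = 2.69e-11). G6pc, the last enzyme of glucose output, fell by 1.35 in p110α hep+/+ mice on HFD (SE 0.20, adjusted p = 1.27e-06), and Mttp, which loads lipid onto apolipoprotein B, fell by 0.56 (SE 0.06, adjusted p = 2.74e-09). The list medians for the fast were -0.06 to 0.00.

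Ppard fell with the fast in 3 of the 4 pairs. The differences were -0.61 in p110α hep+/+ mice on CTRL diet (SE 0.13, 1.52-fold, adjusted p = 0.00021), -0.45 on HFD (SE 0.12, adjusted p = 0.00423) and -0.37 in p110α hep-/- mice on CTRL diet (SE 0.13, adjusted p = 0.0218). In p110α hep-/- mice on HFD it was -0.08 (adjusted p = 0.736). The genotype by state difference on HFD was 0.37 and did not pass (adjusted p = 0.309).

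The levels of Ppard were spread in fed mice and close together in fasted mice. Fed p110α hep+/+ mice on CTRL diet had 8.60, 8.97 and 9.81 (SD 0.44), and fasted ones 8.42, 8.49 and 8.54 (SD 0.05), without overlap. In the 4 fed groups the SD was 0.24 to 0.44 and in the 4 fasted groups 0.05 to 0.15. The fall in p110α hep-/- mice on CTRL diet was lost without fed replicate 4 (adjusted p = 0.0933) or fasted replicate 3 (adjusted p = 0.0588). Within washing batches the fall on CTRL diet in p110α hep+/+ mice was -0.21 in batch 1 (adjusted p = 0.336) and -0.87 in batch 2 (adjusted p = 0.000454), and on HFD it was -0.65 (adjusted p = 0.00231) and -0.23 (adjusted p = 0.377). In p110α hep-/- mice on CTRL diet it was -0.11 (adjusted p = 0.563) and -0.65 (adjusted p = 0.0129). A single probe measured Ppard, at chr17:28438298-28438357 (mm9).

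Esrra, which drives mitochondrial genes, differed between the diets in fed p110α hep+/+ mice and was lower on HFD. Its levels were 12.30, 12.35 and 12.52 on CTRL diet and 11.76, 11.98 and 12.18 on HFD, without overlap, and the difference was -0.42 (SE 0.09, adjusted p = 0.000924). In fed p110α hep-/- mice on HFD the levels were 12.17, 12.32 and 12.36, higher than in p110α hep+/+ mice by 0.33 (SE 0.10, adjusted p = 0.00827), with a small overlap. The genotype by diet difference in fed mice was 0.38 (adjusted p = 0.125), and 0.47 with the second probe (adjusted p = 0.0353), whose diet and genotype differences were -0.53 and 0.42. Within washing batches the diet difference of Esrra was -0.56 and -0.31 (adjusted p = 0.045 and 0.0705) and the genotype difference 0.38 and 0.28 (adjusted p = 0.116 and 0.0897). The fall with the fast in p110α hep+/+ mice on CTRL diet, -0.25 (SE 0.10, adjusted p = 0.0456), was lost when any of 7 arrays was left out (fed replicates 1, 4 and 5 and fasted replicates 3, 4, 5 and 6, adjusted p = 0.0741 to 0.106), and the second probe did not pass there (-0.19, adjusted p = 0.0919). The probe is at chr19:6985503-6985562 (mm9, minus strand).

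Of 9 ERRα targets, 5, 4, 1 and 6 fell and 1, 1, 2 and 1 rose with the fast in the 4 pairs. Acadm, a dehydrogenase of fatty acid oxidation that is also on the PPARα list, rose by 1.02 in p110α hep-/- mice on CTRL diet (SE 0.08, adjusted p = 4.29e-13). Idh3a, of the citric acid cycle, fell by 0.62 in p110α hep+/+ mice on CTRL diet (SE 0.12, adjusted p = 4.54e-05). The list median for HFD in fed p110α hep+/+ mice, where Esrra was lower, was 0.08, with 2 of 9 genes higher and 0 lower, near the 23.9% of all genes that passed.

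Rxra encodes the shared partner of the PPARs, PXR, CAR and FXR. The group means of its brighter probe spanned 0.32, and those of its second, much dimmer probe ran from 7.62 in fed p110α hep+/+ mice on HFD to 8.27 in fasted p110α hep-/- mice on CTRL diet. By the brighter probe Rxra rose with the fast in p110α hep+/+ mice on HFD, from 15.56, 15.64 and 15.79 to 15.88, 15.94 and 16.09, without overlap (0.30, SE 0.06, adjusted p = 0.000199). The second probe of Rxra had 0.22 in this pair (adjusted p = 0.0538). In fed mice on HFD it was higher in p110α hep-/- mice by 0.18 (SE 0.07, adjusted p = 0.0356) and by 0.42 with the second probe (adjusted p = 0.000475). Within washing batches the brighter probe gave 0.24 in batch 1 (adjusted p = 0.0336) and 0.00 in batch 2 (adjusted p = 0.988). The second probe of Rxra also passed for genotype after the fast on CTRL diet, with 0.29 and no overlap (adjusted p = 0.0147), and for diet in fasted p110α hep-/- mice, with -0.29 (adjusted p = 0.0466). For the brighter probe the call in fed mice on HFD was lost when any of 7 arrays was left out (p110α hep+/+ replicates 1, 2 and 6 and p110α hep-/- replicates 1, 2, 4 and 5, adjusted p = 0.0668 to 0.165). The brighter probe is at chr2:27618345-27618404 (mm9).

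Nr5a2, which encodes LRH-1, was higher in fed p110α hep-/- mice than in fed p110α hep+/+ mice, by 0.21 on CTRL diet (SE 0.07, adjusted p = 0.0185) and by 0.27 on HFD (SE 0.07, adjusted p = 0.00124). On HFD the levels were 10.94, 10.99 and 11.09 in p110α hep+/+ mice and 11.06, 11.29 and 11.54 in p110α hep-/- mice, which overlap at one end. Fasted mice on HFD had a difference of 0.17 at the threshold (adjusted p = 0.0501). The value on CTRL diet did not pass without p110α hep-/- replicate 5 or 6 or p110α hep+/+ replicate 3 (adjusted p = 0.0745 to 0.0897). Within washing batches Nr5a2 differed by 0.12 and 0.24 on CTRL diet (adjusted p = 0.519 and 0.144) and by 0.29 and 0.25 on HFD (adjusted p = 0.0495 and 0.107). A single probe, at chr1:138740903-138740962 (mm9, minus strand), measured the gene.

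The 7 LRH-1 targets held 2 higher and 0 lower genes in fed p110α hep-/- mice on CTRL diet, and 3 higher and 1 lower on HFD, with list medians of 0.38 and 0.81. The shares of all genes that passed were 21.7% and 33.0%, and 2 of 7 is near the first. Without the 2 arrays that lay nearer to another group, the LRH-1 list had 2 higher and 2 lower on CTRL diet and 4 higher and 1 lower on HFD. Scarb1, the receptor for high density lipoprotein, was higher by 0.92 (SE 0.08, adjusted p = 5.85e-11) and 0.96 (SE 0.08, adjusted p = 5.02e-12). Abcg8, a subunit of the sterol exporter, was higher by 0.56 (SE 0.15, adjusted p = 0.00411) and 1.16 (SE 0.15, adjusted p = 3.16e-08).

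Nr1h4, which encodes FXR, had the narrowest span of group means by the brightest probe of each receptor, 0.24. In fed mice on CTRL diet the genotypes differed by -0.27 (SE 0.07, adjusted p = 0.00586), with 13.92, 14.26 and 14.30 in p110α hep+/+ and 13.83, 13.93 and 14.09 in p110α hep-/- mice. Within each washing batch this difference was -0.29 and did not pass (adjusted p = 0.0708 and 0.12). The second probe of Nr1h4 had -0.04 in this comparison (adjusted p = 0.758). Its group means ran from 9.56 in fed p110α hep+/+ mice on HFD to 10.05 in those on CTRL diet. In the genotype comparisons it passed with the opposite sign on HFD, with 0.32 in fed mice (adjusted p = 0.000478, no overlap) and 0.21 in fasted mice (adjusted p = 0.0216), and its genotype by diet difference in fed mice was 0.36 (adjusted p = 0.0409). The direction of the genotype difference of Nr1h4 thus depends on the probe and the diet. The second probe also passed for diet, with -0.51 on HFD in fed p110α hep+/+ mice (adjusted p = 2.94e-07), where the brighter probe had -0.11. With the fast in p110α hep+/+ mice it fell by 0.24 on CTRL diet (adjusted p = 0.00613) and rose by 0.23 on HFD (adjusted p = 0.00779), and this diet by state difference was 0.47 (adjusted p = 0.00431). The brighter probe had -0.15, 0.04 and 0.20 in these 3 comparisons, and none passed (adjusted p = 0.0971, 0.681 and 0.315). The 2 probes lie at chr10:88917222-88917281 and chr10:88960160-88960219 (mm9, minus strand) and are annotated on the array to different transcripts.

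Of 7 FXR targets measured, 0 to 3 rose and 2 or 3 fell with the fast. Cyp7a1, the rate-limiting enzyme of bile acid synthesis, fell by 1.74 in p110α hep-/- mice on CTRL diet (SE 0.40, adjusted p = 0.000546), and Abcb11, the bile salt export pump, fell by 1.11 (SE 0.14, adjusted p = 1.91e-08). Abcb4, which exports phospholipid, rose there by 0.79 (SE 0.08, adjusted p = 8.82e-11). By genotype in fed mice on CTRL diet, 1 of the 7 was higher and 1 lower, near the 21.7% of all genes.

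**Figure D5:**
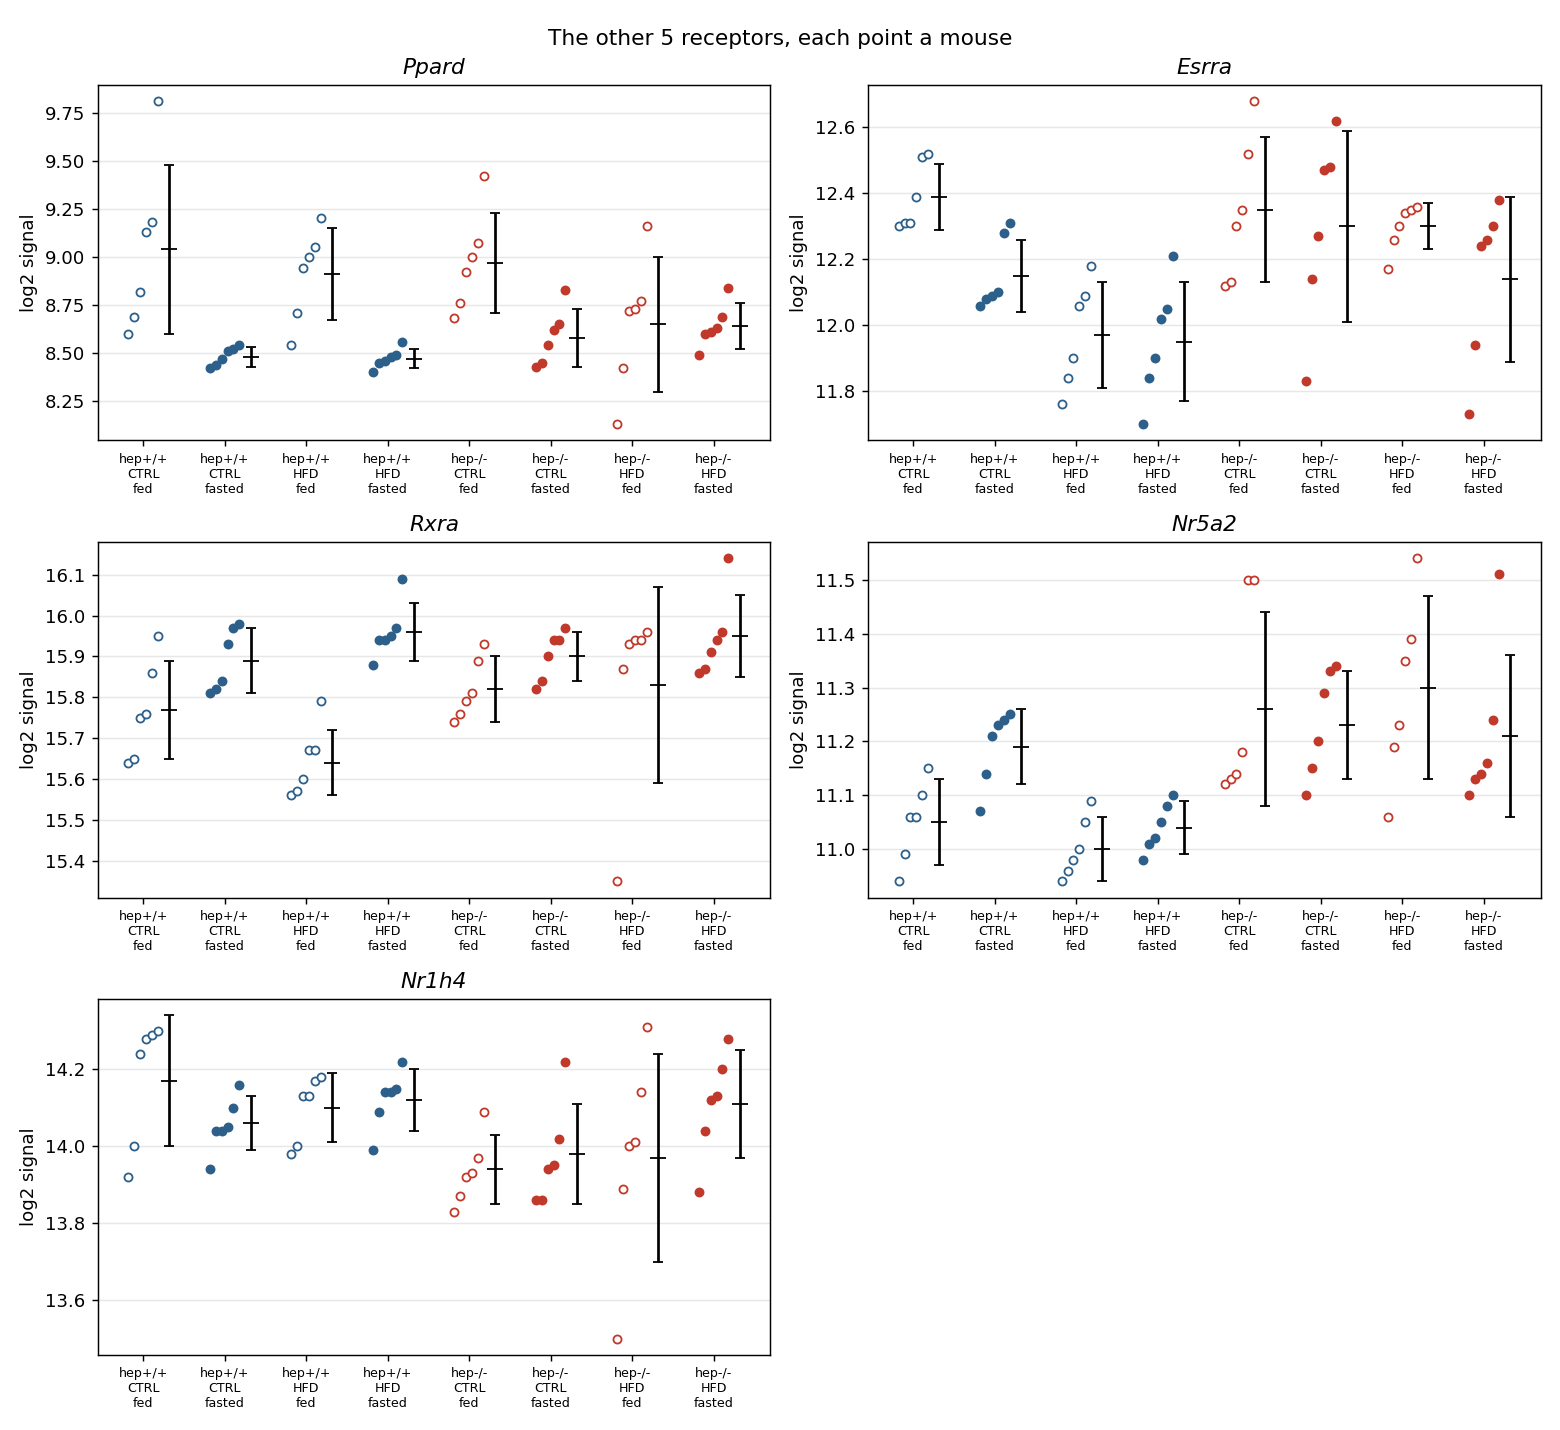
Normalized log2 signal of Ppard, Esrra, Rxra, Nr5a2 and Nr1h4 (vertical axes, each with its own range) in the 8 groups, each point a mouse, with blue for p110α hep+/+, red for p110α hep-/-, open points for fed and filled points for fasted mice. The black mark is the mean with its SD (n = 6). Fasted p110α hep+/+ mice lie within 8.40 to 8.56 for Ppard, while fed ones reach 9.81.

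Of 18 partners and coregulators of these receptors, 8, 5, 7 and 10 rose and 3, 1, 0 and 1 fell with the fast in the 4 pairs, with medians of 0.17 to 0.19. The counts in p110α hep+/+ mice on HFD and in p110α hep-/- mice on CTRL diet, 6 and 7 of 18, were near the shares of all genes, 28.6% and 35.5%. Ppargc1a, the coactivator of the fasting programme, rose by 0.93 in p110α hep+/+ mice on CTRL diet (SE 0.14, adjusted p = 1.86e-06) and by 0.43 on HFD (SE 0.14, adjusted p = 0.0155). With p110α deleted it rose by 0.83 on CTRL diet (adjusted p = 1.62e-05) and had 0.11 on HFD (adjusted p = 0.66). Foxo1, the transcription factor that insulin signalling through p110α keeps out of the nucleus, rose by 0.67 to 0.99 in all 4 pairs. Lpin1 rose by 2.48 in p110α hep-/- mice on HFD (SE 0.44, adjusted p = 2.87e-05). Rxrg, another partner, was lower by genotype in 3 of 4 pairs, with -0.70 in fasted mice on HFD (SE 0.12, adjusted p = 7.13e-06).

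Of 32 other nuclear receptors 27 were measured, and with the fast 9, 4, 7 and 10 rose and 4, 4, 5 and 6 fell. On HFD in p110α hep+/+ mice, 8 of 27 was near the 28.6% of all genes. Nr1d2, a repressor of the clock, rose in all 4 pairs by 0.61 to 0.99. Esr1 was higher in fasted p110α hep-/- mice on HFD by 0.89 (SE 0.17, adjusted p = 4.88e-05).

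The genes whose levels ran most like each receptor over the 48 arrays were searched among 17137 genes. For Pparg they were Cd36, Chchd6 and Lgals1, each with a Pearson r of 0.95. For Ppara they were Rab30 (0.92), Acot5 and Acot1 (both 0.90), and for Nr1i2 Gpcpd1 (0.92), Nlrp12 and Rhbdd2 (both 0.91). For Nr1i3 they were Wdr34 (0.86), Dpys (0.84) and Abcc2 (0.83), and for Hnf4a Smim13 (0.88), Foxo1 and Uvssa (both 0.87). The values were lower for Ppard, with Fcrl5 (0.75) and Hmmr (0.72) beside an unnamed transcript, for Esrra, with Tmem63b (0.77), Fuom (0.76) and Fastk (0.75), and for Nr5a2, with Avpr1a (0.75) beside 2 unnamed transcripts. Rxra had Arhgef26 (0.70), Tanc2 (0.69) and Il1r1 (0.68), and Nr1h4 had Mocs3 (0.69), Trmt12 (0.68) and Spp2 (0.66). All arrays share the same groups, so these are descriptions of the pattern over groups.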

How the data were processed

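Groups, washing batches and replicate numbers were taken from the sample labels, and all 48 samples were mapped. The authors labelled RNA with cyanine 3 and scanned the arrays with Agilent Feature Extraction (10.10.1.1 in the submitters' processing notes). The deposited scanner files hold the intensity of each spot, with no normalization. A deposited table of log2 values, made by the authors by filtering, washing batch correction and quantile normalization, has 32437 probes and was used as an alternative. Its filter is not given in the sources used here.

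Median signals were taken to log2 for the 59305 non-control spots among 62976. Between 92 and 151 outlier spots per array were dropped, and each probe's remaining spots were averaged. The filter asked for a signal well above background on 5 or more of the 6 arrays in some group, and 30792 of 56605 probes met it. The washing batch was removed with group means protected, and arrays were quantile normalized. All 8 groups were fitted together in limma 3.58.1 (R 4.3.3, statmod 1.5.0) with array weights (0.35 to 1.71), and Benjamini-Hochberg adjustment ran across every probe that met the filter. A gene is represented by its brightest probe. Median spot signals were 53 to 71 over local backgrounds of 22 to 42, and the number of arrays limits the precision. Labels do not say that replicates share anything beyond their number, so the number was not taken to pair the mice.

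Members and gene lists were chosen with earlier results of these data known. Genes named are the 10 receptors, from each list at most 4 genes with the largest change among those that passed for each kind of comparison, and the 3 genes most like each receptor. Lpl and Aqp7, and the values of a named gene in further pairs, were added after their values were seen. Some genes are on more than 1 list (Nr0b2, Acadm, Cyp7a1 and Ugt1a1). Comparisons that share groups were not set against each other. Promoter sequences are RefSeq's. Some genes of the lists count in their totals and are not reported here by name.

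The fit was tested on simulated data.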

Additional observations from a re-analysis of the deposited data

Results flagged for a closer look

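In 8 of the 80 receptor and group combinations, 1 mouse lay further from its group than a Dixon test at 95% allows for 6 mice, and chance flags about 1 in 20 groups. The log2 signal of Ppara was 14.68 in replicate 1 of fasted p110α hep+/+ mice on CTRL diet, against 14.94 to 15.09 in the others. For Rxra, replicate 6 of fed p110α hep-/- mice on HFD had 15.35 against 15.87 to 15.96, and replicate 6 of fasted p110α hep-/- mice on HFD had 16.14 against 15.86 to 15.96. For Nr1i3, replicate 1 of fed p110α hep+/+ mice on HFD had 11.51 against 11.80 to 11.97, replicate 3 of fed p110α hep-/- mice on HFD had 10.90 against 11.86 to 12.30, and replicate 6 of fasted p110α hep-/- mice on HFD had 12.78 against 12.42 to 12.54. Replicate 6 of fasted p110α hep-/- mice on HFD also stood apart for Nr5a2, with 11.51 against 11.10 to 11.24, and replicate 3 of that group for Hnf4a, with 16.27 against 15.98 to 16.03.

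The change with the fast differed between the diets in p110α hep-/- mice by a test of the difference itself for Ppara (-0.39, adjusted p = 0.016 by limma) and Nr1i2 (-0.34, adjusted p = 0.0473). Without correction of the washing batch neither passed (adjusted p = 0.0557 and 0.0621). Within a single washing batch, with fewer mice per group, neither passed. The values there were -0.41 and -0.46 for Ppara and -0.19 and -0.46 for Nr1i2. The Nr1i2 call was also lost when any of 24 of the 48 arrays was left out, with adjusted p up to 0.102.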

How the results depend on the processing

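With all arrays 21 of 40 receptor differences passed for the fast, 9 of 40 for diet, 10 of 40 for genotype and 2 of 60 for the interactions. Asking also for a fold change over 1.5 left 6, 4, 4 and 0, and an adjusted p of at most 0.01 left 0 interactions. Washing batch 1 alone gave 13 for the fast and 0 interactions, and batch 2 alone gave 3 for diet, 6 for genotype and 0 interactions. Each batch alone has fewer mice per group. The processed signal scaled to the 75th percentile gave 14 for diet. Interactions numbered 1 with no filter on dim probes, with the washing batch as a block, with no array weights and with the deposited values, 0 without correction of the washing batch and 5 when each gene's probes were summarised by their median. Leaving out each array in turn gave 19 to 22, 7 to 11, 9 to 12 and 1 to 3. With the replicate block the counts were 22, 9, 10 and 2. Same-numbered arrays had correlations of -0.35 to 0.34 (median 0.01), not all above 0, so the number was not taken to pair the mice, although 15 of 48 arrays correlated best with their own number, where 8 of 48 would do so if the 6 numbers meant nothing. The cause of these shifts was not tested. Of 2795 values of the 42 differences that passed, over all alternatives, 2622 kept sign and call, 173 kept the sign and lost the call, and 0 changed sign. For each difference, 48 of its 66 or 67 values came from leaving out 1 array. The stricter thresholds reuse the main fold change, so the sign could not change there. Of the 42 differences, 31 kept the call under every alternative other than the thresholds, single washing batches and other probes. Among coregulators, Crebbp on HFD in fed p110α hep+/+ mice turned from 0.51 to -0.02 with the median over its probes. The median over all genes lay between -0.02 and 0.03 in the 12 comparisons of 2 groups, and between -0.07 and 0.06 under other scalings. Single washing batches, the other probes of a gene and the fit without both arrays nearer to another group were chosen after seeing the data.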
